A study of Mus musculus with 8 samples.

Results

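NF-kB is a family of dimeric transcription factors that turns inflammatory and stress signals into gene expression. The 10 genes described here are 4 of its subunits (Rela, Relb, Nfkb1 and Nfkb2), 2 inhibitors that it induces (Nfkbia and Tnfaip3), 2 adhesion molecules (Icam1 and Vcam1) and 2 secreted cytokines (Ccl2 and Csf1). They were chosen by symbol as parts and known targets of this pathway. All 10 were found among the 23420 gene symbols of the count tables, and all 10 were among the 13316 genes that passed the filter on low counts.

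The cells were mouse embryonic fibroblasts of 1 strain background (C57BL6/N) that expressed the adenoviral oncoprotein E1A together with HRasV12, an activated Ras. Whether each line was clonal or came from its own embryo is not given in the labels. The 8 RNA-seq libraries divide into 4 of wild-type cells and 4 of Neat1-/- cells, called Neat1 null here, and all 8 carried both oncogenes. Neat1 is the long noncoding RNA around which nuclear paraspeckles form. The labels name no cytokine or other inflammatory stimulus in either group, so the values are taken as levels without a named stimulus, and the comparison asks how they differ with the loss of Neat1. Since separate cultures are not stated either, p-values here reflect only how much these libraries vary, which may be partly technical. By Xist and Y-linked genes the Neat1 null libraries were of both sexes, so these 4 did not all share a source.

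In resting cells NF-kB dimers are held in the cytoplasm by inhibitor proteins such as I-kappa-B alpha, the product of Nfkbia. Signals from receptors of the tumour necrosis factor and interleukin families activate the IKK kinase complex, which marks the inhibitor for destruction and lets the Rela-Nfkb1 dimer enter the nucleus. A slower branch processes the Nfkb2 precursor and releases Relb dimers. Among the genes that the dimers then induce are their own inhibitors, which closes a negative feedback loop. In fibroblasts the same induction yields adhesion molecules and cytokines that hold and attract leukocytes.

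Of the 10 genes, edgeR called Vcam1 alone, lower in Neat1 null libraries, and DESeq2 called Vcam1 lower and Rela higher. Neat1 itself, checked first, had 138, 588, 753 and 1320 CPM (counts per 1000000 gene-assigned counts, TMM-scaled) in wild-type libraries 1 to 4 and 6.92, 11.3, 7.90 and 6.12 CPM in Neat1 null libraries 1 to 4, so every library fitted its label. By edgeR's quasi-likelihood test with Benjamini-Hochberg adjustment over all genes (threshold 0.05), 0 members were higher and 1 was lower, where 9.97% and 7.72% of all tested genes (17.7% in all) were called in those directions. At an unadjusted p below 0.05 there were 2 higher (Rela and Relb) and 2 lower (Vcam1 and Tnfaip3) of the 10, where 18.6% and 17.3% of all tested genes were. The calls of DESeq2, 1 higher (Rela, 1.16 on the log2 scale, adjusted p = 0.0388) and 1 lower, compare with 13.1% and 10.9% of all genes it tested. The median log2 fold change, Neat1 null minus wild-type, was -0.14 over the members and -0.06 over all genes tested, with 4 members above and 6 below 0.

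The libraries held 31651625 to 37069334 gene-assigned counts in wild-type and 19651035 to 38950207 in Neat1 null cells. Neat1 null libraries 1 and 3 stood apart. Their ribosomal protein genes took 25.5% and 15.1% of counts, against 6.05% to 9.27% in the other 6 libraries. Their slopes of log2 CPM on gene length were -0.31 and -0.48 per doubling, against 0.0075 and -0.05 in Neat1 null libraries 2 and 4 and 0.14 to 0.25 among wild-type libraries. By Xist and Y-linked genes, 3 Neat1 null libraries were male and the other 5 libraries were female. Of 10 fibroblast markers, Vim ranged from 1233 to 3263 CPM and Fn1 from 431 to 1389 CPM. Pdgfrb ranged from 18.2 to 40.9 CPM, Col1a1 from 1.29 to 12.4 CPM and Col3a1 from 0.353 to 7.82 CPM. Col1a2 and Thy1 were highest in wild-type library 3, with 77.1 and 15.99 CPM, and Dcn and Lum stayed below 1 CPM in every library. The mesenchymal receptor gene Pdgfra fell from 89.95 ± 56.96 to 7.504 ± 2.91 CPM (log2 fold change -3.59, adjusted p = 0.00806 by edgeR).

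**Figure D1:**
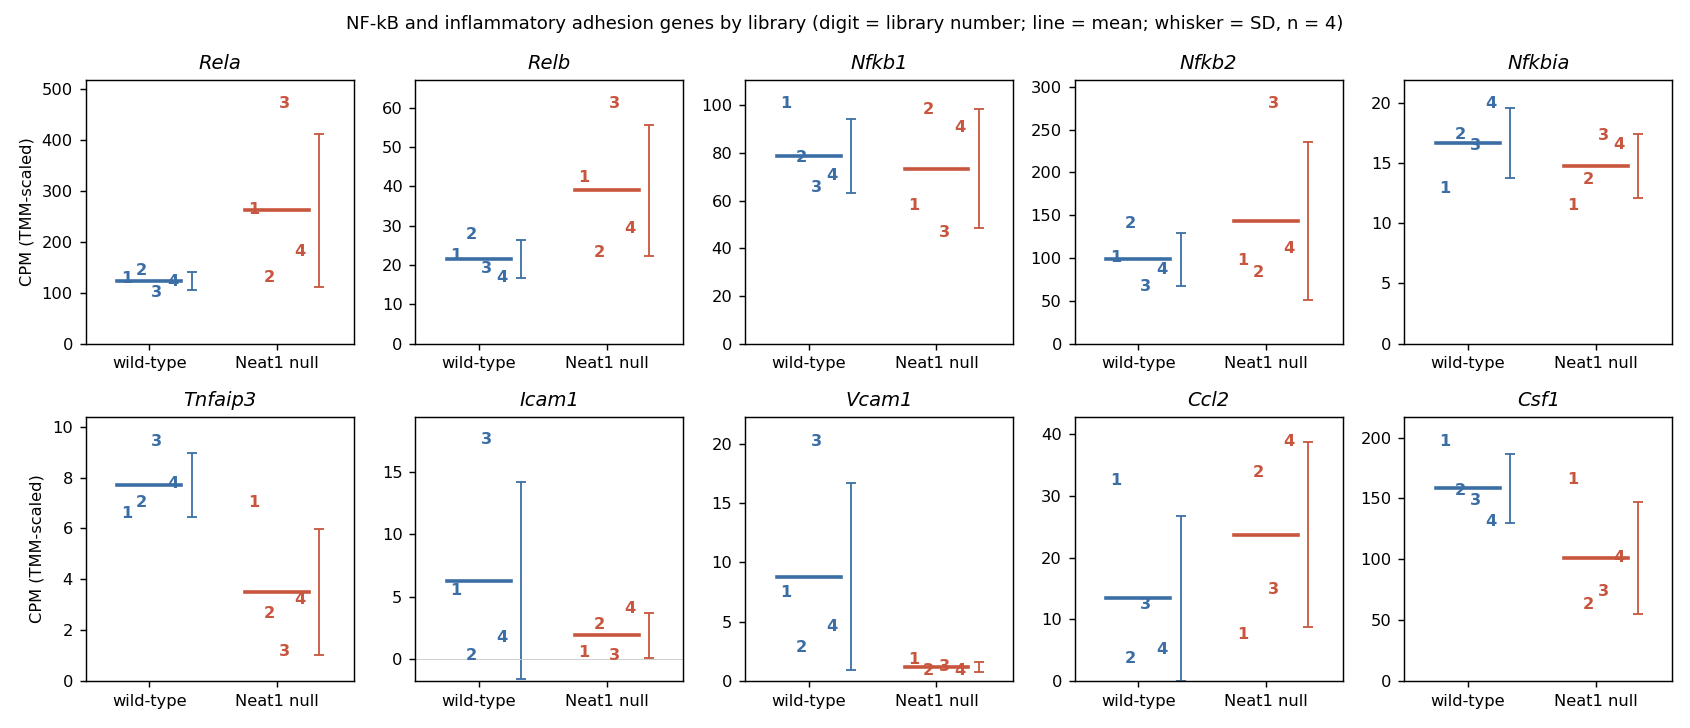
Level of each of the 10 genes in CPM (TMM-scaled, linear axes) in the wild-type and Neat1 null libraries. Each digit is the library of that number, the horizontal line is the mean and the whisker is the SD of 4 libraries. Vcam1 is the gene whose groups do not overlap, and Rela, Relb and Nfkb2 are highest in Neat1 null library 3.

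Regulation by NF-kB is read from short kappa B sites in DNA, so the stretches before RefSeq gene starts are shown for the 4 genes that held such letters. RefSeq promoter sequences of GRCm38.p6 were matched for 6 of the 10 genes (Rela, Nfkb2, Nfkbia, Tnfaip3, Icam1 and Csf1), as 9 windows because Nfkb2 and Tnfaip3 have more than 1 start. Both strands of the 250 bases before each start were searched for the kappa B consensus, GGGRNNYYCC. Here R is A or G, Y is C or T and N is any base. It was found for 4 of the 6 genes and in 6 of the 9 windows, and it occurs in 7.25% of all 32851 such windows. The genes were chosen as parts and known targets of the pathway, so the counts are not weighed against that share. Every window of Nfkb2 held a match, and its windows partly overlap. In the lines that follow, capitals mark a match, read 5′ to 3′ on the strand of the gene. For Nfkbia (chr12:55492648-55492897, minus strand) and Csf1 (chr3:107760470-107760719, minus strand) all 250 bases are given. For Tnfaip3 (chr10:19015411-19015540, minus strand) the last 130 bases and for Nfkb2 (chr19:46304709-46304736, plus strand) the last 28 bases before the first RefSeq start are given. In the GENCODE annotation, whose gene positions are given below, both of these stretches lie inside the gene, past its outermost start.
Nfkbia: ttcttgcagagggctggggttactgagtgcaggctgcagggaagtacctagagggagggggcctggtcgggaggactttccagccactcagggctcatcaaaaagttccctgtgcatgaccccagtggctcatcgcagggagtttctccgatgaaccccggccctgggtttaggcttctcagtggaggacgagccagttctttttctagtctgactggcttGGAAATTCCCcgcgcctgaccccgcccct
Tnfaip3: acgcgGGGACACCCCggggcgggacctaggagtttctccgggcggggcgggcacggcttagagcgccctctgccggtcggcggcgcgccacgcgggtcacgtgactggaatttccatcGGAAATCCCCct
Nfkb2: ccctcggggggccgaaaGGGGCTTTCCc
Csf1: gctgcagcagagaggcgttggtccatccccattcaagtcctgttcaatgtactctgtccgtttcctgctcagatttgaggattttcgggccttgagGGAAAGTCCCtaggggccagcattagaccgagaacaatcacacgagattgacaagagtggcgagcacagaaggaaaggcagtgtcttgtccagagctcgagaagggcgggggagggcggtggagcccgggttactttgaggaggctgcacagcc
The marked matches began 29 bases before the start in Nfkbia, 125 and 12 in Tnfaip3, 11 in Nfkb2 and 154 in Csf1. Those of Nfkbia and Csf1 and the nearer one of Tnfaip3 matched on the opposite strand. Outside its printed stretch Nfkb2 held further matches. They began 39 and 38 bases before its first start and 236 and 225 bases before its later starts. The windows of Rela and Icam1 held no match. A match describes letters in the window and not binding, which these data do not measure.

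Among the subunits, Rela and Relb had higher means in Neat1 null libraries, but neither passed the test and the groups overlapped for both. Rela (chromosome 19, 5637483 to 5648130, plus strand, GRCm38) encodes p65, the main activating subunit. It lies 176577 bases from Neat1 on the same chromosome. Rela had 128, 144, 99.3 and 121 CPM in wild-type libraries 1 to 4, and 264, 130, 470 and 181 CPM in Neat1 null libraries 1 to 4. Libraries 1 and 3 gave the highest Neat1 null values, while library 2 lay within the wild-type range. The means were 123 ± 18.3 and 261 ± 150 CPM (SD, n = 4 each), and edgeR fitted 1.09 on the log2 scale (SE 0.41, adjusted p = 0.0753). Without Neat1 null library 3 the log2 fold change of Rela was 0.65 (adjusted p = 0.181), and without libraries 1 and 3 it was 0.33 (adjusted p = 0.428). It passed the threshold without Neat1 null library 2 (1.32, adjusted p = 0.0354), where 21.7% of all genes passed, and with library sex as a covariate (1.94, adjusted p = 0.0166), where 25.4% did. In that last fit Neat1 null library 3, the only female of its group, alone sets the difference between genotypes. When each library was corrected for the length and GC content of genes it was 0.63 (adjusted p = 0.132), with 12.6% of all genes called, and the part of the length slopes in the higher mean was not tested further.

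Relb (chromosome 7, 19606217 to 19629438, minus strand) is the transactivating partner of processed Nfkb2 in the slower branch. Its level was 22.4, 27.8, 19.2 and 16.7 CPM in the wild-type and 42.3, 23.1, 61.0 and 29.4 CPM in the Neat1 null libraries. The order of the Neat1 null libraries was that of Rela, with library 3 highest and library 2 lowest and inside the wild-type range. On the log2 scale Relb differed by 0.85 (SE 0.37, adjusted p = 0.110), and by 0.56 without Neat1 null library 3 (adjusted p = 0.247). With library sex as a covariate Relb had 1.50, a difference that Neat1 null library 3 alone sets.

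Neither precursor gene passed the test. Nfkb1 (chromosome 3, 135584655 to 135691547, minus strand) encodes p105, from which the p50 subunit is made. It stood at 101, 78.1, 65.3 and 70.3 CPM in the wild-type and 58.1, 98.0, 46.4 and 90.6 CPM in the Neat1 null libraries. The Neat1 null libraries with the most Rela, 1 and 3, had the least Nfkb1. Nfkb1 had -0.10 on the log2 scale (SE 0.35, adjusted p = 0.853), and the sign turned in the fits that left out wild-type library 1, Neat1 null library 1 or 3, or both of the latter, and after the length and GC correction (0.70, adjusted p = 0.0785). Nfkb2 (chromosome 19, 46304320 to 46312385, plus strand) encodes p100, the precursor of p52 that also acts as an inhibitor. It stood at 100.2, 139.9, 66.6 and 86.6 CPM in the wild-type and 97.4, 82.9, 280.3 and 111.5 CPM in the Neat1 null libraries. Library 3 alone lay above the wild-type range. For Nfkb2 edgeR fitted 0.54 (SE 0.43, adjusted p = 0.372) and -0.0061 without that library (adjusted p = 0.993). With library sex as a covariate it was 1.51, a difference that Neat1 null library 3 alone sets. Nfkb2 shares exon sequence with 2 genes on the other strand, so part of its counts is uncertain where the counting ignored strand.

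The ratio of Rela to Nfkb1 within a library was highest in Neat1 null libraries 1 and 3. This was described with no test, since the ratios were chosen after the levels were seen. The log2 ratio of Rela to Nfkb1 CPM was 0.34 to 0.88 in wild-type libraries. In Neat1 null libraries 1 and 3 it was 2.18 and 3.34, and in libraries 2 and 4 it was 0.41 and 1.00. The log2 ratio of Relb to Nfkb2 spanned -2.37 to -1.80 in wild-type and -2.20 to -1.20 in Neat1 null libraries. Rela and Nfkb1 differ in exon length (3072 and 12061 bases), longest coding transcript (2716 and 4117 bases) and transcript GC content (59.4% and 44.9%). Neat1 null libraries 1 and 3 had the most negative length slopes. The part of gene length or GC content in the ratio was not tested.

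**Figure D2:**
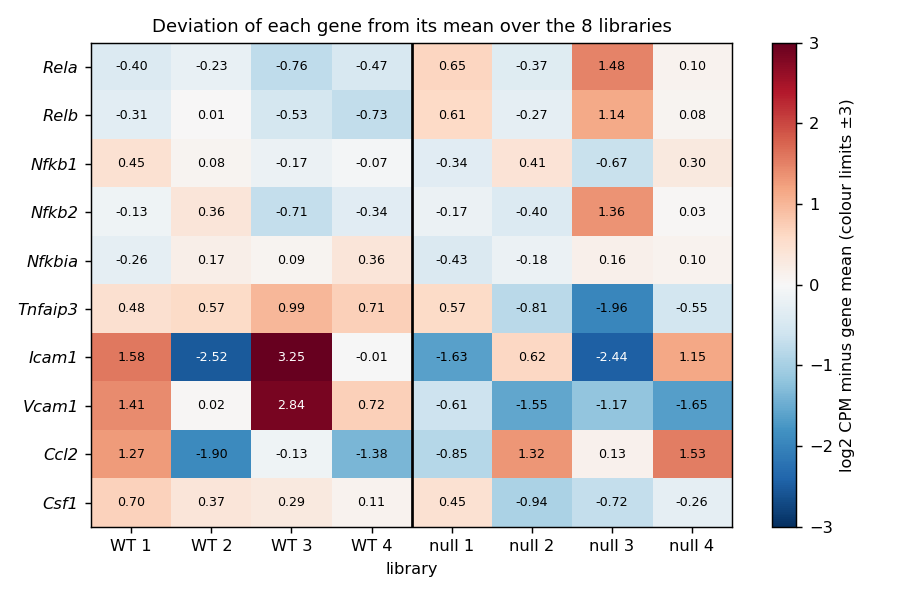
Deviation of log2 CPM from the mean of the 8 libraries for each gene (rows) in each library (columns, WT for wild-type and null for Neat1 null). Red is above and blue below the mean of the gene. Rela, Relb and Nfkb2 share their highest value in Neat1 null library 3, where Nfkb1, Tnfaip3 and Icam1 are low.

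Neither inhibitor passed the test. Nfkbia (chromosome 12, 55489410 to 55492647, minus strand) encodes I-kappa-B alpha, the inhibitor that is destroyed on signalling and made anew by NF-kB. Its level was 12.9, 17.4, 16.4 and 19.9 CPM in the wild-type and 11.5, 13.6, 17.3 and 16.6 CPM in the Neat1 null libraries. The groups overlapped almost fully, and this gene varied least of the 10. For Nfkbia edgeR fitted -0.17 on the log2 scale (SE 0.34, adjusted p = 0.733), and -0.76 after the length and GC correction (adjusted p = 0.103). Per unit of Rela CPM there was less of it in each Neat1 null library than in 3 of the 4 wild-type libraries, a description with no test. The log2 ratio of Nfkbia to Rela was -3.31 to -2.60 in wild-type libraries. It was -4.52 and -4.77 in Neat1 null libraries 1 and 3, and -3.26 and -3.45 in libraries 2 and 4. Nfkbia and Rela differ in exon length (1610 and 3072 bases) and transcript GC content (52.9% and 59.4%). The part of these in the ratio was not tested.

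Tnfaip3 (chromosome 10, 19000910 to 19015657, minus strand) encodes A20, a ubiquitin-editing enzyme that ends signalling upstream of IKK. It had 6.60, 7.003, 9.44 and 7.77 CPM in wild-type libraries. In Neat1 null libraries it had 7.01, 2.67, 1.16 and 3.20 CPM. Neat1 null libraries 2, 3 and 4 lay below every wild-type library, and library 1 lay among them. The means were 7.70 ± 1.25 and 3.51 ± 2.49 CPM, and edgeR fitted -1.15 on the log2 scale (SE 0.52, adjusted p = 0.123). Without Neat1 null library 1 it was -1.71 and passed (adjusted p = 0.0409), as did 12.1% of all genes. After the length and GC correction Tnfaip3 had -0.70 (adjusted p = 0.316). With library sex as a covariate it was -2.72, a difference that Neat1 null library 3, the lowest for this gene, alone sets.

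Vcam1 (chromosome 3, 116109949 to 116129688, minus strand) encodes a surface ligand that captures leukocytes through the integrin alpha 4 beta 1. It had 7.48, 2.83, 20.2 and 4.63 CPM in wild-type libraries 1 to 4, from 282, 128, 868 and 190 counts. In Neat1 null libraries 1 to 4 it had 1.797, 0.909, 1.20 and 0.847 CPM, from 20, 31, 34 and 27 counts. All 4 Neat1 null libraries lay below all 4 wild-type libraries, as was the case for 11.0% of all tested genes. The wild-type libraries spread 7.15-fold among themselves, with library 3 highest, and the Neat1 null libraries 2.12-fold. Vcam1 fell 7.51-fold (-2.91 on the log2 scale, SE 0.63, adjusted p = 0.0181 by edgeR), from 8.79 ± 7.86 to 1.19 ± 0.434 CPM.

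The call of Vcam1 ended in 3 of the fits that left out 1 library. These were the fits lacking wild-type library 3 (-2.09, adjusted p = 0.0715), wild-type library 4 (-3.12, adjusted p = 0.0584) and Neat1 null library 3 (-2.91, adjusted p = 0.0646). In those fits 0.135%, 0.0820% and 0.0950% of all tested genes were called. After the length and GC correction its log2 fold change was -1.90 (adjusted p = 0.0600), without Neat1 null libraries 1 and 3 it was -3.33 (adjusted p = 0.144, with 0.0497% of all genes called), and with library sex as a covariate -2.87 (adjusted p = 0.0940). Vcam1 shares exon sequence with 1 gene on the other strand. In these bulk libraries fewer cells that make Vcam1 and less Vcam1 RNA per cell cannot be told apart.

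Endothelial cells also carry Vcam1, and the summed CPM of 6 endothelial markers was 5.28 to 44.7 in wild-type and 0.359 to 2.60 in Neat1 null libraries. In wild-type libraries 1 and 3, the libraries with the most Vcam1, most of that sum was Emcn, with 16.7 and 39.7 CPM against at most 0.0314 CPM elsewhere. The part of these genes in the difference of Vcam1 was not tested. Kdr had 0.875 to 9.26 CPM in the wild-type group and 0.0898 to 1.73 CPM in the Neat1 null libraries. The other 4 endothelial markers, Pecam1, Cdh5, Tek and Vwf, stayed below 1 CPM in every library. Of 8 macrophage markers, 6 stayed below 1 CPM, with Ptprc and Tyrobp at 0 in all 8 libraries. Their summed CPM was 15.0 to 108 in wild-type and 13.1 to 32.3 in Neat1 null libraries, nearly all from Cd68 and Cd14. Cd68 fell (-2.47 on the log2 scale, adjusted p = 0.0239 by edgeR), with groups that overlapped. Cd14 went the other way, from 5.73 ± 0.582 to 10.4 ± 2.23 CPM, and was not called (0.85, adjusted p = 0.116 by edgeR). Its Neat1 null libraries all lay above the wild-type ones, as was the case for 11.7% of all tested genes.

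Icam1 (chromosome 9, 21015985 to 21028817, plus strand) encodes the ligand of leukocyte beta 2 integrins and is a classical target of NF-kB. It stood at 5.49, 0.265, 17.6 and 1.78 CPM in the wild-type and 0.539, 2.79, 0.282 and 4.05 CPM in the Neat1 null libraries. The wild-type libraries differed 66.4-fold among themselves, so that library 2 lay below every Neat1 null library and library 3 above all of them. Icam1 had -1.69 on the log2 scale (SE 1.08, adjusted p = 0.278), and -0.37 without wild-type library 3 (adjusted p = 0.823). Wild-type library 3 held the highest level of both adhesion molecules. Icam1 shares exon sequence with 1 gene on the other strand.

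The cytokines had fold changes of opposite sign, and neither passed the test. Ccl2 (chromosome 11, 82035571 to 82037453, plus strand) encodes the chemokine that draws monocytes through the receptor Ccr2. It stood at 32.5, 3.56, 12.3 and 5.14 CPM in the wild-type and 7.46, 33.8, 14.7 and 38.9 CPM in the Neat1 null libraries. High and low libraries occurred in both groups, and Neat1 null libraries 2 and 4 were the highest of the 8. For Ccl2 edgeR fitted 0.83 on the log2 scale (SE 0.66, adjusted p = 0.383). It passed without wild-type library 1, at 1.78 (adjusted p = 0.0468), where 20.9% of all genes were called. It was 0.52 with wild-type library 2 left out (adjusted p = 0.591), 0.51 with Neat1 null library 4 left out (0.631) and 0.14 with library sex as a covariate (0.929). Ccl2 was high in the libraries in which Rela was lowest among the Neat1 null libraries.

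Csf1 (chromosome 3, 107741048 to 107760469, minus strand) encodes the growth factor of macrophages. It stood at 197, 157, 148 and 131 CPM in the wild-type and 166, 63.0, 73.5 and 101 CPM in the Neat1 null libraries. Of the latter, libraries 2, 3 and 4 lay below every wild-type library and library 1 lay among them, the same arrangement as for Tnfaip3. The means were 158 ± 28.05 and 101 ± 46.2 CPM, and Csf1 had -0.65 on the log2 scale (SE 0.37, adjusted p = 0.219). Without Neat1 null library 1 it was -0.99 (adjusted p = 0.0638).

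**Figure D3:**
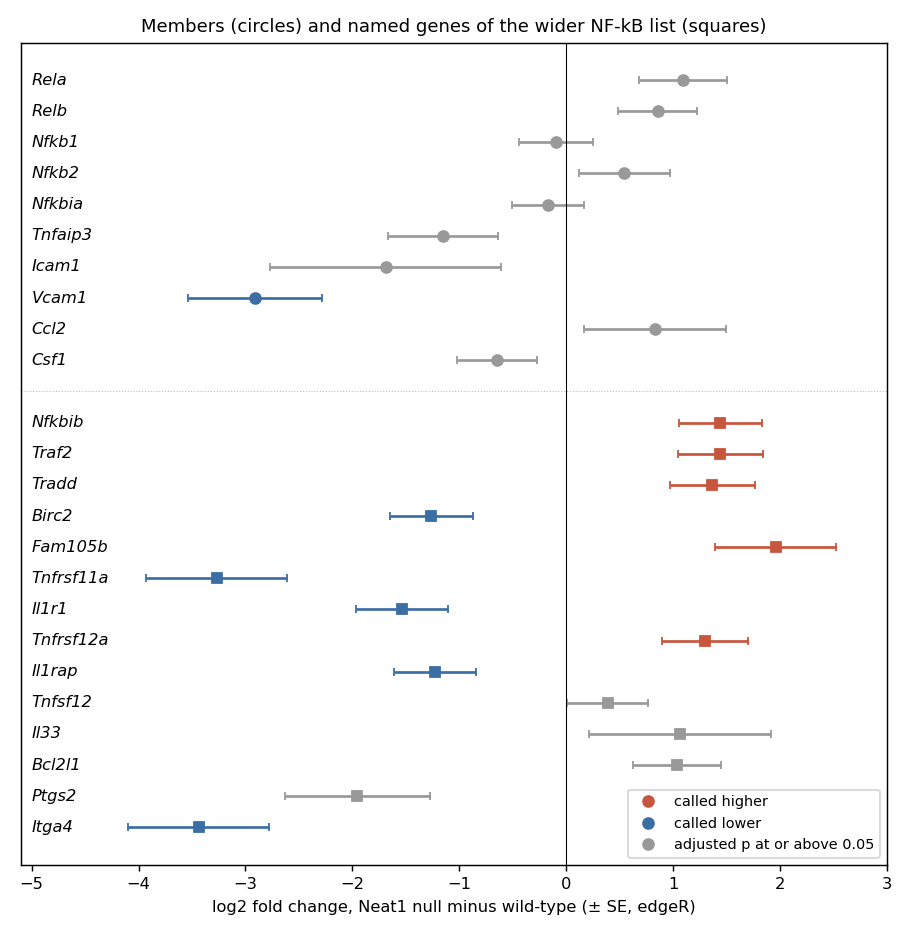
Log2 fold change (Neat1 null minus wild-type, ± SE, edgeR, 4 libraries a group) of the 10 members (circles) and of genes named from the wider list of the pathway (squares). Blue and red mark genes with an adjusted p below 0.05. Vcam1 is the blue circle, and its receptor subunit gene Itga4 is the lowest square.

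Per kilobase of the longest coding transcript, the wild-type levels of the members followed the order Rela, Csf1, Nfkb2, Nfkb1, Ccl2, Nfkbia, Relb, Vcam1, Icam1 and Tnfaip3. Rela had 45.3 ± 6.75 CPM per kilobase, Csf1 37.9 ± 6.72 and Nfkb2 25.6 ± 8.04. Nfkb1 had 19.1 ± 3.79, Ccl2 16.5 ± 16.4, Nfkbia 10.6 ± 1.84 and Relb 9.75 ± 2.18 CPM per kilobase. Vcam1, Icam1 and Tnfaip3 stood lowest, with 2.53 ± 2.27, 2.48 ± 3.10 and 1.74 ± 0.284 CPM per kilobase. Neighbours in this order overlapped in their library ranges, except Relb and Vcam1. In Neat1 null libraries Rela was again first, with 96.2 ± 55.2, and Vcam1 last, with 0.342 ± 0.125 CPM per kilobase.

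The rest of the pathway was described through a list of 82 genes, of which 60 were tested. In this list 6 genes rose and 5 fell with the loss of Neat1 (10.0% and 8.33% of those tested, close to the 9.97% and 7.72% of all genes). Their adjusted p ran from 0.0180 (Itga4 and Tnfrsf11a) to 0.0472 (Ltbr) by edgeR. The median log2 fold change of the tested genes was -0.27, against -0.06 over all genes. In the fits that left out wild-type library 3 or 4, 0 of the 11 passed (adjusted p = 0.0589 to 0.174 and 0.0645 to 0.145). The same count held when Neat1 null library 3 (0.0646 to 0.116) or both libraries 1 and 3 (0.144 to 0.441) were left out. In those fits only 0.0497% to 0.135% of all genes were called. Library sex as a covariate ended the calls of Fam105b, Tnfrsf11a and Il1r1 (0.0975 to 0.392), and upper-quartile scaling those of Tradd, Tnfrsf12a and Ltbr (0.0503 to 0.0614).

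Receptors held 5 of these calls, 2 higher and 3 lower among 12 tested. These were 16.7% and 25% of them, where 9.97% and 7.72% of all tested genes were called. Both chains of the interleukin 1 receptor fell: Il1r1, the ligand-binding chain, from 38.4 ± 15.9 to 13.2 ± 5.93 CPM (log2 fold change -1.53, SE 0.43) and Il1rap, the accessory chain, from 53.8 ± 15.0 to 23.0 ± 10.4 CPM (-1.23, SE 0.39). Tnfrsf11a, which encodes RANK, the receptor of the osteoclast factor RANKL, fell from 5.68 ± 3.12 to 0.561 ± 0.364 CPM (-3.27, SE 0.66). Its Neat1 null libraries were all below 1 CPM, from 0.0898 in library 1 to 0.910 in library 4, so this fold change rests on low counts. Of the other 5 tested receptors of the tumour necrosis factor family, 2 rose and 3 (Tnfrsf1a, Tnfrsf1b and Cd40) were not called. Tnfrsf12a, the receptor of TWEAK, rose from 217 ± 39.6 to 532 ± 248 CPM (1.29, SE 0.40), with every Neat1 null library above every wild-type library. The same separation held for 11.7% of all tested genes. Ltbr, the lymphotoxin beta receptor, rose from 91.3 ± 27.7 to 232 ± 131 CPM (1.34, SE 0.44) and is named after its values were seen. Signals from this receptor feed the branch of Relb and Nfkb2. After the length and GC correction Tnfrsf11a stayed called (-2.93, adjusted p = 0.0345), while Il1r1 (-1.06, 0.0847), Il1rap (-0.35, 0.361), Tnfrsf12a (0.64, 0.194) and Ltbr (0.73, 0.156) did not. Il1rap and Ltbr were also lost without wild-type library 1 (adjusted p = 0.0531 and 0.0622). Tnfrsf12a and Ltbr were lost without wild-type library 2 (0.0841 and 0.0527), Il1r1, Il1rap and Ltbr without Neat1 null library 1 (0.0548, 0.0807 and 0.0991), and Tnfrsf12a and Il1rap without Neat1 null library 4 (0.0578 and 0.0585).

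Among the 22 tested IKK genes and adaptors, 2 rose and 1 fell (9.09% and 4.55%, against 9.97% and 7.72% of all tested genes). The adaptor genes Traf2 and Tradd, which join tumour necrosis factor receptor 1 to IKK, rose from 27.96 ± 7.19 to 75.9 ± 37.9 CPM (1.44, SE 0.40) and from 11.7 ± 1.14 to 30.1 ± 17.95 CPM (1.37, SE 0.40). Birc2, the ubiquitin ligase cIAP1 that works beside Traf2, fell from 38.7 ± 16.6 to 16.2 ± 5.26 CPM (-1.26, SE 0.39). For all 3 genes the groups did not overlap, as was the case for 11.7% (Neat1 null higher) and 11.0% (lower) of all tested genes. Traf2 stayed called after the length and GC correction (1.53, adjusted p = 0.0366), and Tradd (0.63, 0.104) and Birc2 (-0.92, 0.0606) did not. Tradd had 0.87 without Neat1 null library 3. Tradd was also lost without wild-type library 2 (0.0518), Traf2 and Birc2 without Neat1 null library 1 (0.0502 and 0.0587) and Birc2 without Neat1 null library 4 (0.0673).

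Among 6 other Rel and I-kappa-B genes, Nfkbib rose and 0 fell (16.7% and 0%, against 9.97% and 7.72% of all tested genes). Nfkbib encodes I-kappa-B beta, a close relative of the Nfkbia product, and it rose from 20.8 ± 6.65 to 56.5 ± 27.2 CPM (1.44, SE 0.39, adjusted p = 0.0249). Its groups did not overlap, with Neat1 null higher, as was the case for 11.7% of all tested genes. It had 0.81 after the length and GC correction (adjusted p = 0.0856). Among 8 negative regulators, 1 rose and 0 fell (12.5% and 0%, against the same shares of all tested genes). The gene is Fam105b, the older symbol of Otulin, which removes linear ubiquitin chains. Its Neat1 null libraries had 258, 41.4, 48.6 and 44.3 CPM against 16.7 to 32.1 CPM in wild-type. The log2 fold change of 1.96 (SE 0.57) became 0.83 without Neat1 null library 1 (adjusted p = 0.0994) and 1.24 after the length and GC correction (adjusted p = 0.119). DESeq2 gave Fam105b no adjusted p and called 0 of the negative regulators.

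Most ligands and many inducible targets were too low to be tested. Of 8 ligand genes 3 were tested, with 0 called by edgeR or DESeq2 (0 higher and 1 lower at an unadjusted p below 0.05, where 18.6% and 17.3% of all genes were). Tumour necrosis factor (Tnf) had 0 counts in all 8 libraries. Tnfsf12, which encodes TWEAK, had 11.8 ± 1.65 CPM in the wild-type group and 15.3 ± 6.93 CPM in the Neat1 null libraries. Il33 had 4.10 ± 2.99 and 8.50 ± 11.7 CPM, with 25.9 CPM in Neat1 null library 2. Of 18 other target genes 7 were tested and 0 were called by edgeR, with 1 higher and 1 lower at an unadjusted p below 0.05. DESeq2 called 1 of them, Ptgs2, lower (adjusted p = 0.0157). Ptgs2, the inducible cyclooxygenase, had 79.7 ± 63.4 CPM in the wild-type group and 20.6 ± 13.6 CPM in the Neat1 null libraries (-1.95, SE 0.68, adjusted p = 0.0618 by edgeR). Ptgs2 passed with upper-quartile scaling (-2.18, adjusted p = 0.0458) and with wild-type library 2 left out (-2.27, 0.0335). It had -1.29 with wild-type library 3 left out (0.202). With library sex as a covariate Ptgs2 had -4.44, a difference that Neat1 null library 3 alone sets. Bcl2l1, which encodes the survival factor Bcl-xL, had 67.7 ± 9.05 and 139 ± 82.9 CPM (1.03, SE 0.41, adjusted p = 0.0894). Bcl2l1 had 0.60 with Neat1 null library 1 left out (0.249) and 0.10 with libraries 1 and 3 left out (0.802), and passed with library 2 left out (1.27, 0.0401).

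Of 7 receptor genes for the adhesion molecules and cytokines, 2 were tested. Itga4, the alpha 4 chain of the integrin that binds Vcam1, fell from 6.60 ± 3.57 to 0.600 ± 0.359 CPM. By library it had 4.14, 2.94, 9.88 and 9.44 CPM in the wild-type and 0.539, 0.997, 0.141 and 0.722 CPM in the Neat1 null libraries. The groups did not overlap, with Neat1 null lower, as was the case for 11.0% of all tested genes. For Itga4 edgeR fitted -3.44 on the log2 scale (SE 0.66, adjusted p = 0.0180), and -2.53 after the length and GC correction (adjusted p = 0.0345). Its beta 1 partner Itgb1, named after its values were seen, had 708 ± 213 and 519 ± 193 CPM and was not called (-0.45, SE 0.43, adjusted p = 0.468). Csf1r and Ccr2, the receptors of Csf1 and Ccl2, stayed below 1 CPM in all libraries and were not tested.

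The genes whose pattern over the 8 libraries lay nearest to that of each member were found by the root mean square distance of centred log2 CPM among 11796 genes. For Rela they were Ppp1r37 and Gga1 (distances 0.09 and 0.11, where the median gene lay at 0.92), and for Relb Phlda3 and Fbxl6. Nfkb1 had Impa1 and Foxk2, Nfkb2 had Sbf1 and Sufu, and Nfkbia had Tmem243 and Inpp5a. Tnfaip3 had Cgnl1 and Akap12 (0.16 and 0.24), and Csf1 had Tsku and Zfp398 (0.23 and 0.24). The most variable members had more distant neighbours. Vcam1 lay nearest to Entpd1 and Fam78b (0.56 and 0.61), Icam1 to Nefm and Tmem35 (0.50 and 0.52) and Ccl2 to Mpzl3 and Zfp105 (0.44 and 0.47). By this measure no member was among the 2 nearest genes of another.

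**Figure D4:**
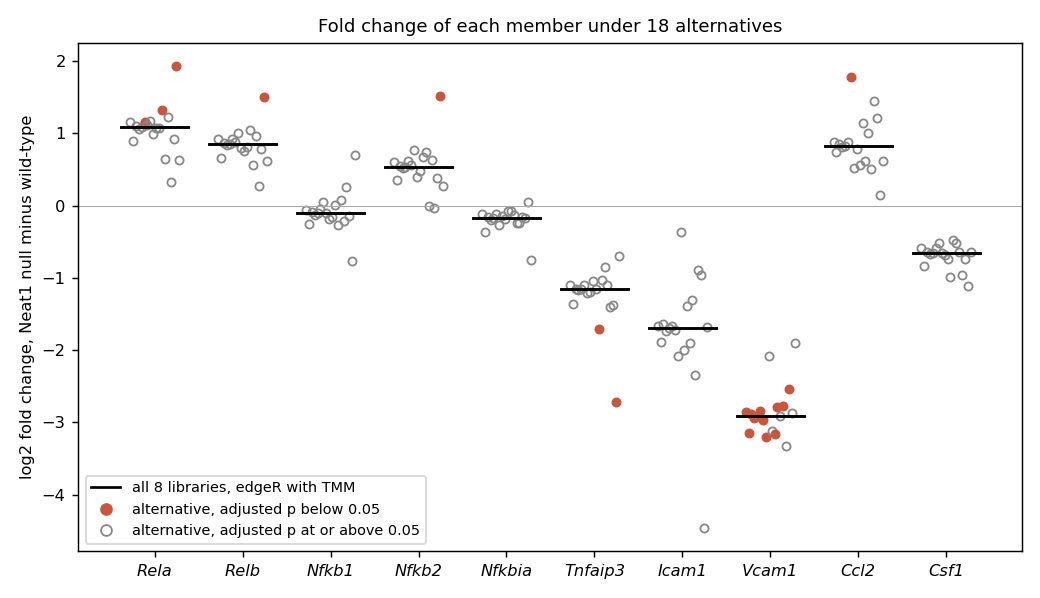
Log2 fold change of each member in the fit to all 8 libraries (black line) and under 18 alternatives (points), filled where the adjusted p was below 0.05. Vcam1 spans -3.33 to -1.90, and the points of Nfkb1, Nfkb2 and Nfkbia fall on both sides of 0.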

How the data were processed

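The 4 wild-type and 4 Neat1 null RNA-seq libraries were grouped by their labels. The submitters' processing notes name CASAVA 1.8, STAR, DESeq2 and the build mm10. The counting tool, its strand setting and its annotation are not given in the sources used here. The deposited values are raw counts of reads per gene symbol, made by the authors, 1 table a library. Rows for reads with no feature (5.48% to 15.7% of counts) and ambiguous reads (1.09% to 1.76%) stayed out of library sizes and tests.

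Genes were filtered with filterByExpr (minimum count 10), scaled by TMM and tested with edgeR 4.0.16 in R 4.3.3 (robust quasi-likelihood F test, Neat1 null against wild-type, Benjamini-Hochberg adjustment over 13316 genes, threshold 0.05). CPM values are TMM-scaled. Errors are SDs over 4 libraries. Depth was 19651035 to 38950207 counts a library. On simulated data made from these libraries, 0% of genes changed 2-fold, 72% changed 4-fold and 90% changed 8-fold were recovered, of 50 each among 13227 genes. That simulation made 139 calls, 6.47% of them false, against 2356 calls in the real fit. With fewer calls the adjustment is stricter, so these shares do not give the recovery in the real fit.

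Alternatives were other size factors, other filters, DESeq2 1.42.0, each library left out, Neat1 null libraries 1 and 3 left out, the replicate number as a block, library sex, a spline correction for gene length and GC content (GENCODE M21, GRCm38, 5 degrees of freedom, 99.2% of tested genes matched), and thresholds of 0.01 and 0.1. Promoters were taken from RefSeq.

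The members and the lists were chosen with earlier results of these data known. Named are all 10 members, Neat1, the called genes of each role of the wider list by smallest p (up to 4 a role, or the 2 of highest mean CPM where none was called), and the 2 nearest genes of each member with a mean log2 CPM of at least 1. Marker genes come from lists for fibroblasts, macrophages, endothelium and epithelium. The summed CPM of the epithelial list was 194 to 633 in wild-type and 250 to 3182 in Neat1 null libraries, mostly Krt18.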

Additional observations from a re-analysis of the deposited data

Results flagged for a closer look

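In 5 of 54 sets of 4 libraries, 1 library lay far from the other 3 of its group by Dixon's test on CPM. The nominal rate of about 1 in 20 assumes normal and independent sets. These sets share libraries and some genes were picked as called, so the 5 are not weighed against that rate. The far library was Neat1 null library 3 for Nfkb2, with 280.3 CPM against 111.5 in the next library, for Nfkbib, with 97.1 against 46.6 CPM, and for Tradd, with 56.7 against 25.4 CPM. For Fam105b (Otulin) it was Neat1 null library 1, with 258 CPM against 48.6. For Il33 it was Neat1 null library 2, with 25.9 CPM against 5.08.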

How the results depend on the processing

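Of the 10 members, edgeR called 0 higher and 1 lower, and of the wider list 6 higher and 5 lower. Leaving out 1 library at a time gave 0 to 1 and 0 to 2 members and 0 to 8 and 0 to 6 genes of the wider list. Of all genes, 0.0820% (without wild-type library 4) to 21.7% (without Neat1 null library 2) were called in those fits. Without Neat1 null libraries 1 and 3, 0 members were lower and the wider list had 0 higher and 0 lower, with 0.0497% of all genes called. The length and GC correction left 0 members lower, with 2 higher and 2 lower in the wider list (7.67% and 4.90% of all genes). At a threshold of 0.01 all these counts were 0, with 0.0526% of all genes called. At 0.1 there were 1 member higher and 1 lower and 8 wider genes each way (15.6% and 13.6% of all genes). Library sex as a covariate gave 3 members higher and 1 lower and 9 wider genes higher and 10 lower (1784 and 1595 of all 13316 genes), DESeq2 gave 1 member higher, and upper-quartile scaling, which moved the median of all genes to -0.24, gave 3 wider genes higher. Of all genes, DESeq2 called 13.1% higher and upper-quartile scaling called 7.78% higher. In the fit with library sex, Neat1 null library 3 alone sets the difference between genotypes. The cause of the shifts between settings was not tested.

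With the replicate number as a block, 0 members were higher and 1 lower, and the wider list had 3 higher and 4 lower (8.21% and 8.65% of all genes). Vcam1 had -2.54 in that blocked fit (adjusted p = 0.00515). Deviations of same-numbered libraries correlated at 0.32, -0.26, -0.01 and 0.11, and only number 1 matched its own number best, so the numbers are not taken to pair the libraries.

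The sign of Nfkb1 turned to 0.055 without wild-type library 1, 0.0028 and 0.078 without Neat1 null library 1 or 3, 0.26 without both and 0.70 with the length and GC correction. Nfkb2 ranged from -0.0061 (without Neat1 null library 3) to 0.77 (without wild-type library 2) and had -0.026 without Neat1 null libraries 1 and 3. Nfkbia turned to 0.054 with library sex. Il33 ranged from -0.57 (without Neat1 null library 2) to 1.66 (without wild-type library 4) and had -1.31 with library sex. Tnfsf12 turned to -0.047 without Neat1 null libraries 1 and 3 and -0.40 with the length and GC correction. Vcam1 kept its direction under all 20 alternatives and its call under 13. The thresholds of 0.01 and 0.1 reuse the main fit, and the fit without robust estimation has the same fold change. Its direction could therefore not turn there, and the threshold of 0.1 could not end its call. Icam1 had 12 to 755 counts in wild-type and 6 to 129 in Neat1 null libraries.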

Other observations

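Cxcl10, a chemokine that attracts T cells and is induced by interferon and NF-kB, is given here after its values were seen. It had 70.8, 6.65, 1.095 and 1.29 CPM in wild-type libraries 1 to 4 and 9.88, 17.8, 3.60 and 35.0 CPM in Neat1 null libraries 1 to 4. Wild-type library 1 was highest in its group and Neat1 null library 4 in its own, as was the case for Ccl2. For Cxcl10 edgeR fitted -0.26 on the log2 scale (SE 1.36, adjusted p = 0.904), and the groups overlapped.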
